A study of Mus musculus with 12 samples.

Results

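Antibody-secreting cells (plasmablasts and plasma cells) are known by a set of genes that they use to make, fold and release immunoglobulin. Here 10 of these genes were followed in common lymphoid progenitors (CLPs): Jchain, Tnfrsf17, Prdm1, Derl3, Mzb1, Sdc1, Irf4, Txndc5, Fam46c and Fkbp11. They were found by symbol, all 10 were in the deposited table of 47643 genes, and all 10 were among the 14479 genes with a mean level of 1 TPM or more (transcripts scaled to gene length and to a fixed total per library) over the 12 libraries. The genes were selected on their measured levels in these same groups, by whether they follow the immunoglobulin genes or go the other way, so their group differences are given below as a description, with no test, and no count of calls is made over them.

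The libraries came from CLPs of male mice aged 27 to 32 weeks, sorted by flow cytometry as lineage-negative, Sca1 low, cKit low and IL7Ra+ cells, with 1 library of polyadenylated RNA per mouse. The 4 WT mice carried the intact Firre locus, from which the long non-coding RNA Firre is made. The 4 ∆Firre mice (labelled KO) carried a deletion of the whole Firre gene and its promoter, made with CMV-Cre from a floxed allele of JM8 embryonic stem cells and then backcrossed to C57BL/6J for 3 generations. The 4 Firre rescue mice (labelled Rescue) carried the same deletion together with a Firre cDNA transgene behind a tet-responsive promoter and an rtTA transgene driven by CAG in all tissues, and were fed doxycycline. The methods name the plug date as the start of the diet for matings of the Firre transgene with rtTA, and for the rescue mice, which carry both alleles, they name the diet without a date. The Firre transgene was injected into C57BL/6J zygotes, while the rtTA line has both B6N and FVB in its strain name and was kept by breeding to C57BL/6J. Comparing the 3 groups asks what loss of the locus does to CLP gene expression and how CLPs that make Firre RNA from the transgene only compare with those. In any difference from Firre rescue, transgenic Firre RNA, rtTA, doxycycline and strain origin cannot be told apart, since no ∆Firre mice with rtTA or doxycycline alone are among the groups.

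In a B cell that becomes an antibody-secreting cell, the transcription factors Irf4 and Prdm1 (Blimp-1) shut down the B cell programme and, with Xbp1, expand the endoplasmic reticulum (ER). Jchain joins IgA and IgM into polymers, Tnfrsf17 (BCMA) receives survival signals, and ER genes such as Derl3, Txndc5, Fkbp11 and Mzb1 serve the folding and clearance of secreted protein. Several of these genes are also known from other cells: Sdc1 (CD138) is carried by B cell precursors of the bone marrow, Mzb1 by marginal zone B cells and plasmacytoid dendritic cells, and Irf4 by many lymphoid and myeloid cells.

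Firre itself followed the labels. It was at 25.2 to 31.6 TPM in the 4 WT libraries, at 0 in all 4 ∆Firre libraries, and at 59.9 to 174 TPM in the 4 Firre rescue libraries. Whole reads recovered from the table numbered 10738185 to 17774874 per WT library, 14024232 to 17162994 per ∆Firre library, and 25164377 to 31872539 per Firre rescue library, leaving out 3 abundant genes whose reads could not be recovered. The labels carry library numbers that fall into 3 ranges, one taken up by Firre rescue alone and the other two shared evenly by WT and ∆Firre, so in any difference from Firre rescue the range and the group cannot be told apart. The CLP markers Il7r and Flt3 were at 353 to 525 and 506 to 709 TPM over all libraries. Called genes are those at an adjusted p of 0.1 or less in limma on log2(TPM + 1). The authors' own test, on read counts at the same threshold, called more genes between ∆Firre and WT. The limma calls numbered 3 between ∆Firre and WT and 4043 between Firre rescue and ∆Firre, of which 1242 were higher. Between Firre rescue and WT they numbered 3512, of which 698 were higher. The split hangs on the scaling: after a median ratio rescaling 1901 of 3763 and 1305 of 2549 were higher, and with a correction for GC content 1675 of 2462 and 1295 of 1989. Over all genes tested the median difference of log2(TPM + 1) was -0.16 between Firre rescue and ∆Firre (-0.05 after rescaling and 0.07 after the GC correction), and the values below are to be read against that shift.

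The stretches of 250 bases before annotated start sites of the genes were searched for short motifs. They were taken from RefSeq (GRCm38.p6) for 9 of the 10 genes, and no stretch of Mzb1 was searched. Shown here are the promoters of Jchain, the gene with the largest difference, of Prdm1 and Derl3, which like it were lowest in Firre rescue, and of Sdc1, which was highest there. Capitals mark the letters of 4 motifs searched on both strands: TGACGTG (core of the unfolded protein response element), CCACG (part of the ER stress element), GAAANNGAA (part of the interferon response element that Irf and Prdm1 proteins bind) and CACCTG (an E protein site). CCACG read on the other strand can overlap TGACGTG. The 4 promoters lie at chr5:88527898-88528147, minus strand (Jchain), chr10:44458749-44458998, minus strand (Prdm1), chr10:75893148-75893397, plus strand (Derl3) and chr12:8771146-8771395, plus strand (Sdc1). Those of Jchain, Derl3 and Sdc1 abut the annotated gene, whereas that of Prdm1 lies inside it, before an internal start site, as does that of Tnfrsf17.
Jchain: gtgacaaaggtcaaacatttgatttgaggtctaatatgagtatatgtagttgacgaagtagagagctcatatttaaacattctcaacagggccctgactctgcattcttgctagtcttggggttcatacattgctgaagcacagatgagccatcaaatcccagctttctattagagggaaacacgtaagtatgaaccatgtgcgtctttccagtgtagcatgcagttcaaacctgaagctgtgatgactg
Prdm1: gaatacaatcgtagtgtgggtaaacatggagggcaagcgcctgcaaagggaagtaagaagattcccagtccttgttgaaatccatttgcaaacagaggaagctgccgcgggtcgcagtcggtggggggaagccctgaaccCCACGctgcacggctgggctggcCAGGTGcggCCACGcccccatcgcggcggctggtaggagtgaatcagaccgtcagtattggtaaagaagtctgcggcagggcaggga
Derl3: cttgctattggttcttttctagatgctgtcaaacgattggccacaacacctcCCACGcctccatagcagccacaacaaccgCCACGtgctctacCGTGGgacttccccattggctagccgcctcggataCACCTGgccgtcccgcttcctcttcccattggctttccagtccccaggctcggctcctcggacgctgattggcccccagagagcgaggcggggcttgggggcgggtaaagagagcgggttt
Sdc1: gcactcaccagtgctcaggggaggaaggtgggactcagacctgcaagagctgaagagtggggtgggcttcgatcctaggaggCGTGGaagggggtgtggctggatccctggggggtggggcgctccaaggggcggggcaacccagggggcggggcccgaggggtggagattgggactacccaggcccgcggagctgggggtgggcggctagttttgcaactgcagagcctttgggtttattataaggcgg
The Jchain stretch held none of the 4 motifs. The Derl3 stretch held CCACG on one or the other strand 3 times, starting at -198, -169 and -156 from the start site, and CACCTG once. Of the 9 genes, 6 had CCACG in at least 1 of their promoters (Prdm1, Derl3, Sdc1, Irf4, Txndc5 and Fkbp11), against 28.3% of all 32851 promoters of the same length. CACCTG was found in Prdm1 and Derl3 (17.2% of all promoters), GAAANNGAA in Tnfrsf17 and Txndc5 (7.13%), and TGACGTG in Txndc5 (1.65%). Txndc5 has 3 annotated promoters and Fkbp11 has 2, which gives them more bases in which a match can fall. CCACG was thus held both by genes lower in Firre rescue and by Sdc1, which was higher there. A match is a description of letters only.

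The immunoglobulin genes set the pattern with which the 10 genes are compared. The TPM of 129 immunoglobulin genes (120 variable and 9 constant) summed to 20585, 27099, 20749 and 27469 in WT mice 6, 8, 10 and 11, to 43623, 57125, 61909 and 36505 in ∆Firre mice 8, 9, 11 and 12, and to 6261, 4899.7, 3531 and 2627 in Firre rescue mice 1 to 4. The 3 groups did not overlap in this sum, with ∆Firre highest and Firre rescue lowest. For the heavy-chain genes analysed here, which leave out Ighd, Ighg2b and Ighg3, ∆Firre and WT overlapped. Their 45 variable genes summed to 1075 to 3385 TPM in WT and 3212 to 5445 in ∆Firre. The 50 variable and constant genes together summed to 5505 to 9925 and 9769 to 15597. Firre rescue lay below both, at 190.2 to 309 and 2578 to 2924 TPM. Igha, the constant gene of IgA, averaged 1262 ± 991 TPM in the WT libraries (SD, n = 4), 4229 ± 1828 under ∆Firre and 20.4 ± 24.2 under Firre rescue. Igkc, the constant gene of the kappa light chain, averaged 11259 ± 2353 TPM, 25643 ± 7589.6 TPM and 1212 ± 1064 TPM in the same order. Ighm, which B cell precursors make before any antibody-secreting cell exists, differed far less, at 4153 ± 1302, 4116 ± 810.3 and 2498 ± 109.9 TPM (SD, n = 4). The lambda genes Iglc1, Iglc2 and Iglc3 were lower in Firre rescue than in ∆Firre by log2 differences of -8.03, -4.73 and -4.83. That of Iglc2 ran from -5.97 without Firre rescue mouse 2 to -3.93 without mouse 3, that of Iglc3 from -5.47 without Firre rescue mouse 1 to -4.23 without ∆Firre mouse 8, and that of Iglc1 from -8.55 without Firre rescue mouse 3 to -7.44 without ∆Firre mouse 11. Ighg1 was high in only 2 libraries, WT mouse 10 (198 TPM) and Firre rescue mouse 1 (166 TPM), Ighg2c in only 1, ∆Firre mouse 8 (136 TPM), and Ighe stayed at 3.74 TPM or less in every library. In sorted cells measured in bulk, fewer cells of a type and less RNA per cell cannot be told apart, here and in every value that follows.

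Jchain (chr5:88519809-88527897 in GRCm38, the build behind all positions here) had the highest level of the 10 genes in WT and ∆Firre, and the largest difference. It was at 619, 1296, 868 and 911 TPM in WT mice 6, 8, 10 and 11, at 1832.7, 3109.8, 2941 and 1369 TPM in ∆Firre mice 8, 9, 11 and 12, and at 58.1, 195, 27.7 and 1.18 TPM in Firre rescue mice 1 to 4. The 3 groups did not overlap, and the Firre rescue libraries ranged widely, mouse 2 being highest and mouse 4 lowest. The mean was 2.5 times that of WT in ∆Firre, and the ∆Firre mean was 32.8 times that of Firre rescue (79.8 times without Firre rescue mouse 2 and 24.7 times without mouse 4). On the log2(TPM + 1) scale the differences were 1.29 ± 0.98 (SE) for ∆Firre minus WT, -6.23 ± 0.98 for Firre rescue minus ∆Firre, and -4.94 ± 0.98 for Firre rescue minus WT. Without Firre rescue mouse 2 the last 2 were -7.15 and -5.85, and without mouse 4 they were -4.98 and -3.69. These rest on 7404 to 46968 reads in WT and ∆Firre and on 28 to 5467 in Firre rescue, where mouse 4 holds the 28. The SE is shared by all 3 groups of the fit. Firre rescue held 93.6% of the squared deviations, so the SE mainly reflects that group and not the spread of WT and ∆Firre.

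**Figure D1:**
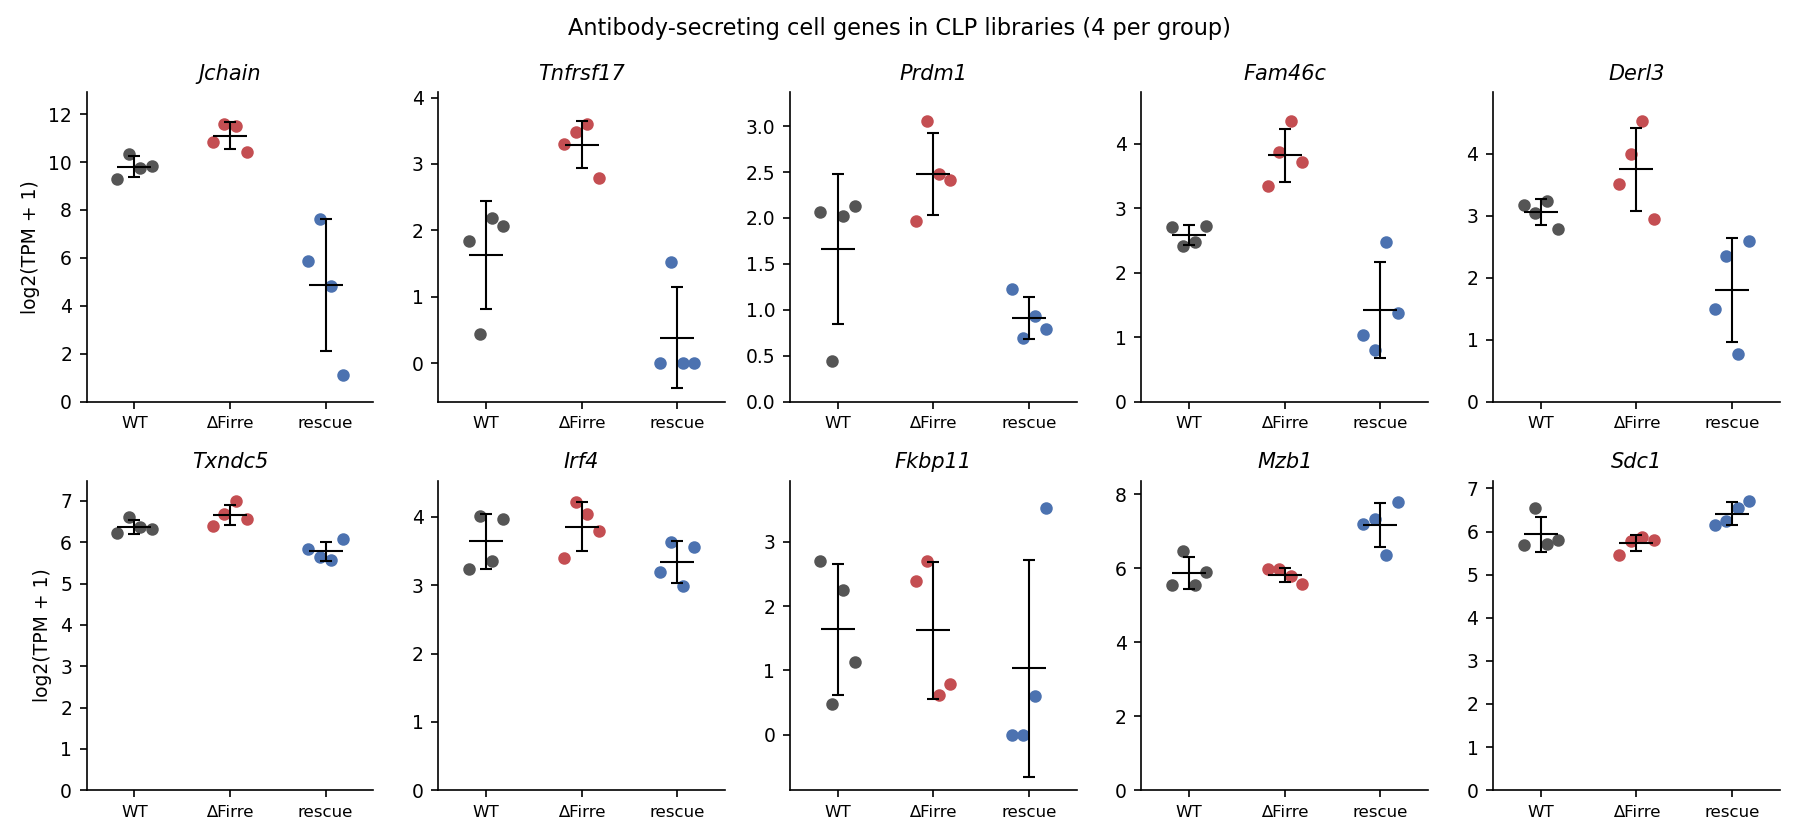
Each panel plots log2(TPM + 1) of 1 gene in every library (points, 4 per group), with the group mean and SD in black. Jchain, Tnfrsf17 and Fam46c do not overlap between WT and ∆Firre, while Mzb1 and Sdc1 stand highest in Firre rescue.

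From mouse to mouse Jchain deviated with some of the immunoglobulin genes and not with others. Igkc stood at 10.5 to 14.1 times the TPM of Jchain in all 8 WT and ∆Firre libraries and at 9.03 to 41.2 times in Firre rescue. Firre rescue mouse 4, lowest for Jchain, was also lowest for Igkc, at 20.0 TPM against 678 to 2392 in the other 3. The ratio of Jchain to Igha was 0.46 to 0.624 in the 4 ∆Firre libraries, whereas WT mouse 6 had 2.89 and Firre rescue mouse 3 had 20.6. With the group means removed, the deviations of Jchain on the log2(TPM + 1) scale lay mostly in Firre rescue, which held 93.6% of their sum of squares, mouse 4 alone 58.0% and mouse 2 31.3%, against 2.37% in WT and 3.99% in ∆Firre. Pearson r over all 12 libraries therefore describes mainly the 4 Firre rescue mice, and is given beside the r over the 8 WT and ∆Firre libraries.

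Igkc had an r with Jchain of 0.94 over the 12 libraries, the highest of 14478 genes, 0.73 without Firre rescue mouse 4 and 0.98 in WT and ∆Firre alone. For Igha the r was 0.75 over 12 libraries, 0.61 without Firre rescue mouse 2, 0.87 without mouse 4 and 0.84 in WT and ∆Firre. Iglc2 had an r of 0.76 over 12 libraries but -0.02 in WT and ∆Firre. The r was lower for Iglc3 (0.4 and 0.33), Iglc1 (0.36 and 0.22), Ighg1 (0.22 and 0.27), Ighg2c (0.12 and -0.11) and Ighm (0.01 and -0.31). Single libraries moved these values: without Firre rescue mouse 4 the r was 0.2 for Iglc3, 0.14 for Iglc1 and 0.01 for Ighg1. Without Firre rescue mouse 2 it was 0.51 for Ighg1, and without ∆Firre mouse 8 it was 0.33 for Ighg2c. With the sum of the 129 variable and constant genes it was 0.77 over 12 libraries (0.61 without Firre rescue mouse 4) and 0.9 in WT and ∆Firre, and with that of the constant genes 0.79 (0.68) and 0.96. With the sum of all variable genes it was 0.49 (0.27) and 0.43, and with that of the heavy-chain variable genes 0.09 and -0.13. With that of the 50 heavy-chain variable and constant genes analysed here it was 0.25 and 0.36. The values come from the same libraries and share their scaling, and the median r over all genes was -0.12 over 12 libraries and -0.05 in WT and ∆Firre.

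The named genes outside the immunoglobulin loci with the highest r over 12 libraries were Cep83os (0.93), Dtd2 (0.89), Vsig4 (0.88), Cabcoco1 (0.86) and Mir703 (0.86). Without Firre rescue mouse 4 their r was 0.83, 0.59, 0.82, 0.67 and 0.55 in the same order. In WT and ∆Firre alone their r was 0.59, 0.3, 0.47, 0.59 and 0.53, so the likeness rests mainly on Firre rescue. In WT, ∆Firre and Firre rescue their mean levels were 22.7, 28.4 and 19.6 TPM for Cep83os, 14.3, 16.1 and 9.38 TPM for Cabcoco1, and 321, 441 and 231 TPM for Mir703, which is the order of Jchain with smaller differences. Dtd2 had means of 14.4, 13.5 and 17.0 TPM. Vsig4 had means of 0, 0.197 and 2.84 TPM, and with a mean of 0 in WT it has no deviation there.

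Among the other 9 antibody-secreting cell genes the r with Jchain differed between the 12 libraries and the 8 of WT and ∆Firre. In WT and ∆Firre it was 0.76 for Txndc5, 0.74 for Irf4, 0.69 for Mzb1, 0.65 for Derl3, 0.59 for Sdc1, 0.3 for Fam46c, -0.1 for Tnfrsf17, -0.2 for Prdm1 and -0.23 for Fkbp11. Over the 12 libraries it was -0.28 for Txndc5, 0.14 for Irf4, -0.17 for Mzb1, -0.08 for Derl3, -0.3 for Sdc1, -0.22 for Fam46c, 0.4 for Tnfrsf17 and -0.03 for Prdm1. For Fkbp11 it was -0.73 over the 12 libraries and -0.25 without Firre rescue mouse 4, which was lowest for Jchain and highest for Fkbp11. Without that mouse the r was 0.82 for Derl3, 0.76 for Mzb1, 0.73 for Irf4, 0.42 for Txndc5 and 0.1 for Sdc1, so the negative r of Derl3, Mzb1, Txndc5 and Sdc1 over 12 libraries rests on it. Without Firre rescue mouse 2 the r of Tnfrsf17 was -0.03, and without WT mouse 8 it was 0.67. That of Fam46c was 0.12 without Firre rescue mouse 2 and -0.54 without Firre rescue mouse 4.

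**Figure D2:**
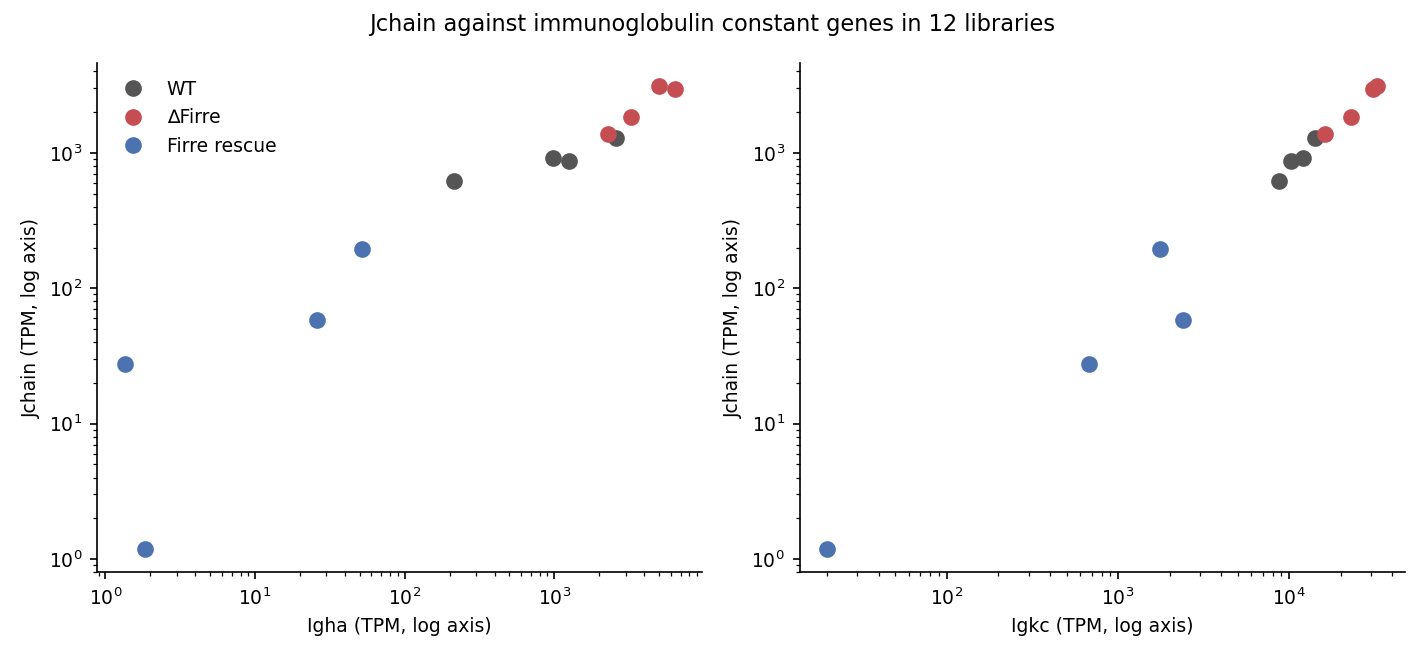
Jchain is plotted against Igha (left) and Igkc (right), in TPM on log axes, 1 point per library and 4 per group. Along Igkc the 8 WT and ∆Firre libraries lie on a narrow band of 10.5 to 14.1 units of Igkc per unit of Jchain, and Firre rescue mouse 4 lies far below all others.

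Tnfrsf17, the BCMA receptor found on antibody-secreting cells (chr16:11313232-11320074), was low and followed the same order. It was at 2.58, 0.349, 3.56 and 3.2 TPM in WT mice 6, 8, 10 and 11, at 8.81, 10.2, 11.1 and 5.91 in ∆Firre mice 8, 9, 11 and 12, and at 0, 1.87, 0 and 0 in Firre rescue mice 1 to 4. The ∆Firre libraries all lay above the WT libraries, and all Firre rescue libraries lay below ∆Firre, but Firre rescue mouse 2 lay above WT mouse 8. The counts are small: 27 to 50 reads in ∆Firre, 17 in Firre rescue mouse 2 and 1 in WT mouse 8. In the 3 Firre rescue libraries at 0, a count of 0 allows up to 0.403, 0.348 and 0.391 TPM (3 reads, counting error only). The differences were 1.66 ± 0.47 (SE) for ∆Firre minus WT and -2.91 ± 0.47 for Firre rescue minus ∆Firre. The second was -5.40 with a pseudocount of 0.1 and -1.36 with one of 5, and the first was 2.18 and 0.92, so their size hangs on that choice.

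Of the regulators, Prdm1, the repressor that ends the B cell programme (chr10:44437174-44528558), was at 3.18, 0.362, 3.05 and 3.36 TPM in WT mice 6, 8, 10 and 11. It was at 2.91, 7.28, 4.59 and 4.32 TPM in ∆Firre mice 8, 9, 11 and 12, and at 1.34, 0.621, 0.912 and 0.735 in Firre rescue mice 1 to 4. Firre rescue lay below ∆Firre in every library, while ∆Firre and WT overlapped. WT mouse 8, with 7 reads on the gene, lay below every Firre rescue library. The difference of ∆Firre minus WT was 0.82 ± 0.41 (SE), and 0.41 without WT mouse 8. This difference was 0.39 with a pseudocount of 5 and 1.2 with one of 0.1 or with limma-voom on reads. That of Firre rescue minus ∆Firre was -1.57 ± 0.41, but -2.26 with a pseudocount of 0.1, -0.71 with one of 5 and -2.36 with limma-voom on reads.

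Irf4, which acts ahead of Prdm1 (chr13:30749233-30766981), differed less. Its level was 8.39, 15.1, 9.24 and 14.7 TPM in WT mice 6, 8, 10 and 11, 9.53, 17.6, 15.5 and 12.8 in ∆Firre mice 8, 9, 11 and 12, and 8.15, 11.5, 6.92 and 10.8 in Firre rescue mice 1 to 4. The means lay in the immunoglobulin order (11.8 ± 3.52, 13.8 ± 3.47 and 9.32 ± 2.14 TPM, SD, n = 4), but all 3 groups overlapped. The differences were 0.22 ± 0.25 (SE) and -0.52 ± 0.25. The first ran from 0.08 without WT mouse 6 to 0.37 without ∆Firre mouse 8, and the second was -0.22 after the GC correction.

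Fam46c (Tent5c), a poly(A) polymerase that stabilises immunoglobulin messages in antibody-secreting cells (chr3:100468057-100489192), was at 5.55, 4.34, 4.57 and 5.6 TPM in WT mice 6, 8, 10 and 11, at 9.22, 13.6, 19.4 and 12.2 TPM in ∆Firre mice 8, 9, 11 and 12, and at 1.04, 0.75, 4.56 and 1.58 TPM in Firre rescue mice 1 to 4. ∆Firre lay above both other groups in every library. Firre rescue mouse 3 reached the lower WT libraries, and the other 3 stayed below all of WT. The differences were 1.24 ± 0.35 (SE) for ∆Firre minus WT and -2.40 ± 0.35 for Firre rescue minus ∆Firre, on 93 to 163 reads in WT, 274 to 600 in ∆Firre and 51 to 294 in Firre rescue. The second was -2.99 with a pseudocount of 0.1, -1.42 with one of 5 and -2.95 with limma-voom, and the first was 0.87 with one of 5.

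Among the ER genes, Derl3, a channel component for the clearance of misfolded proteins (chr10:75893398-75895941), was at 5.86 to 8.44 TPM in WT. It was at 10.4, 15.0, 21.96 and 6.68 TPM in ∆Firre mice 8, 9, 11 and 12 and at 1.8, 4.1, 0.707 and 5.01 TPM in Firre rescue mice 1 to 4. Firre rescue lay below both other groups in every library, whereas ∆Firre mouse 12 lay within WT. The differences were 0.69 ± 0.41 (SE) and -1.95 ± 0.41, and the first was 0.43 without ∆Firre mouse 11. The second was -2.37 with a pseudocount of 0.1 and -1.20 with one of 5.

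Txndc5, a disulfide isomerase of the ER (chr13:38500266-38528824), had the second highest level of the 10 in WT and ∆Firre. It was at 73.2 to 96.8 TPM in WT, at 83.5, 101.3, 127 and 93.9 TPM in ∆Firre mice 8, 9, 11 and 12, and at 56.4, 48.9, 46.1 and 66.2 TPM in Firre rescue mice 1 to 4. Firre rescue was again below both other groups in every library, and ∆Firre overlapped WT. The differences were 0.28 ± 0.15 (SE) and -0.88 ± 0.15, small in size but measured on 1463 to 2767 reads per library, and the first was 0.17 without ∆Firre mouse 11.

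Fkbp11, a prolyl isomerase of the ER (chr15:98724368-98728198), showed no order between the groups. It was at 5.47, 0.389, 3.74 and 1.19 TPM in WT mice 6, 8, 10 and 11, at 4.21, 5.47, 0.539 and 0.733 TPM in ∆Firre mice 8, 9, 11 and 12, and at 0, 0, 0.517 and 10.5 TPM in Firre rescue mice 1 to 4. The highest and the lowest values both lay in Firre rescue, mouse 4 alone holding 72 reads against 0 to 4 in the other 3. The differences were -0.01 ± 0.81 (SE) and -0.59 ± 0.81. They ran from -0.40 (without WT mouse 8) to 0.34 (without WT mouse 6) and from -1.42 (without Firre rescue mouse 4) to -0.24 (without ∆Firre mouse 9), the second being -1.90 with a pseudocount of 0.1 and -0.13 with one of 5, and no order was detectable at this depth.

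Mzb1 and Sdc1 went the other way. Mzb1, an ER chaperone for the IgM heavy chain, was at 46.0, 87.7, 45.5 and 59.1 TPM in WT mice 6, 8, 10 and 11. It was at 61.6, 61.9, 54.4 and 46.6 TPM in ∆Firre mice 8, 9, 11 and 12 and at 145, 160, 80.8 and 219 TPM in Firre rescue mice 1 to 4. Firre rescue lay above ∆Firre in every library, and above every WT library except that mouse 3 was below WT mouse 8. The Firre rescue mean was 2.7 times that of ∆Firre, with a difference of 1.34 ± 0.27 (SE), while ∆Firre minus WT was -0.04 ± 0.27, from -0.15 without WT mouse 6 or 10 to 0.16 without WT mouse 8. In Firre rescue Mzb1 had the highest mean of the 10 genes and stood above Jchain in mice 1, 3 and 4 but below it in mouse 2, whereas in every WT and ∆Firre library Jchain stood far above it. Firre rescue mouse 4, lowest for Jchain, was highest for Mzb1.

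Sdc1, the heparan sulfate proteoglycan CD138 (chr12:8771396-8793716), was at 50.8, 91.8, 51.4 and 54.6 TPM in WT mice 6, 8, 10 and 11, at 43.0, 54.2, 58.1 and 55.2 TPM in ∆Firre mice 8, 9, 11 and 12, and at 70.5, 74.6, 92.7 and 104 TPM in Firre rescue mice 1 to 4. Firre rescue lay above ∆Firre in every library, by a difference of 0.68 ± 0.19 (SE). WT mouse 8 lay among the Firre rescue libraries, the other 3 WT libraries below them. The difference of ∆Firre minus WT was -0.20 ± 0.19, and 0 without WT mouse 8.

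The 10 genes thus showed 3 patterns. Jchain, Tnfrsf17, Prdm1, Fam46c, Derl3, Txndc5 and Irf4 had means in the immunoglobulin order, highest in ∆Firre and lowest in Firre rescue. Mzb1 and Sdc1 had their highest means in Firre rescue, while ∆Firre minus WT was -0.04 ± 0.27 and -0.20 ± 0.19 (SE). Fkbp11 had means of 2.7, 2.74 and 2.74 TPM. Jchain, Tnfrsf17 and Fam46c were higher in every ∆Firre library than in any WT library, as were 0.843% of all genes. Within the first range of library numbers, with 2 mice per genotype, the differences of these 3 genes were 1.09, 2.2 and 1.28, and within the second 1.49, 1.12 and 1.2. Prdm1 (0.94 and 0.69), Derl3 (1.11 and 0.26) and Txndc5 (0.24 and 0.33) were also above 0 in both ranges. Irf4 (-0.27 and 0.71), Mzb1 (-0.31 and 0.23), Sdc1 (-0.5 and 0.1) and Fkbp11 (0.7 and -0.73) changed sign between the ranges. Between Firre rescue and ∆Firre 6 of the 10 genes (Jchain, Tnfrsf17, Prdm1, Derl3, Txndc5 and Fam46c) were lower in every library, as were 15.6% of all genes, and Mzb1 and Sdc1 were higher in every library, as were 6.31%. Since the genes were chosen on these contrasts, nothing is read from the counts. Both comparisons share the ∆Firre libraries.

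**Figure D3:**
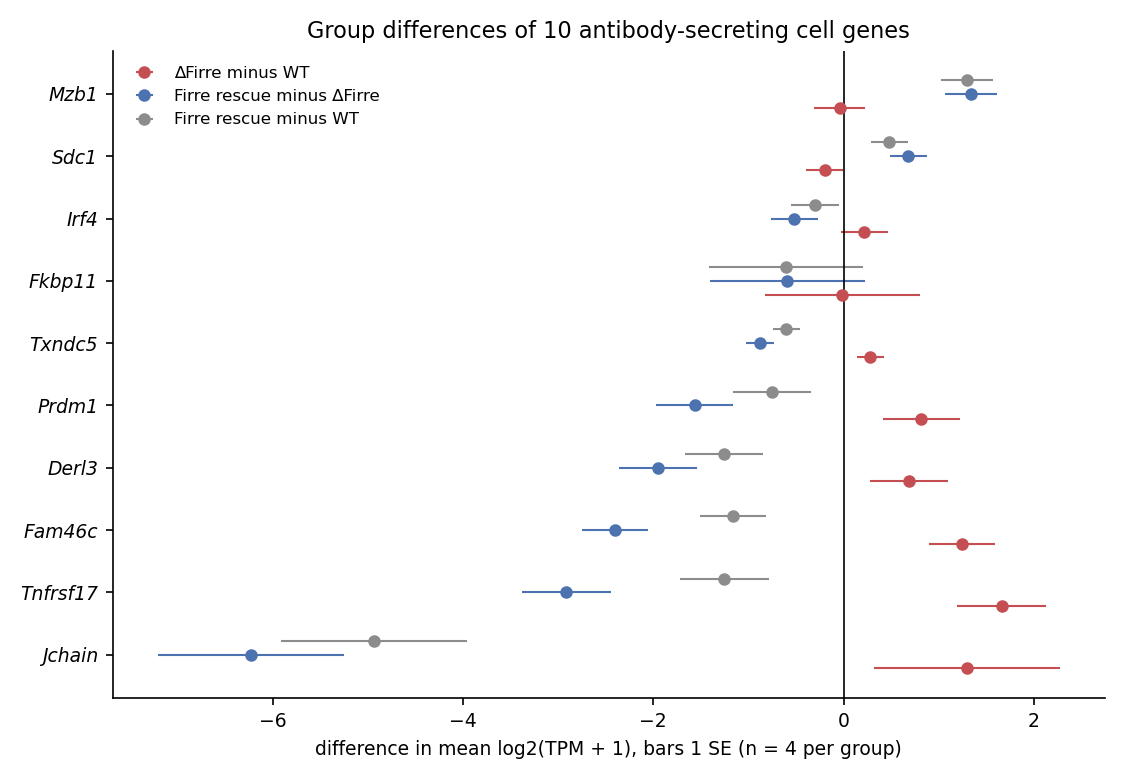
For each of the 10 genes the difference in mean log2(TPM + 1) between groups is plotted with its SE (limma, 4 libraries per group). Jchain reaches -6.23 between Firre rescue and ∆Firre, while Mzb1 (1.34) and Sdc1 (0.68) lie right of 0.

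With group means removed, the pairs among the other 9 genes had an r of -0.67 to 0.65 over the 12 libraries and of -0.79 to 0.85 in the 8 of WT and ∆Firre. Tnfrsf17 deviated with Prdm1 (0.53 over 12 libraries and 0.85 in WT and ∆Firre) and against Sdc1 (-0.67 and -0.79). Txndc5 deviated with Sdc1 (0.63 and 0.75), Irf4 (0.59 and 0.66) and Derl3 (0.61 and 0.62). For Mzb1 the r was 0.65 and 0.59 with Irf4 and 0.58 and 0.39 with Txndc5, while with Derl3 it was 0.59 over 12 libraries and 0.07 in WT and ∆Firre. Fkbp11 had an r of 0.02 and -0.64 with Txndc5, and of -0.07 and -0.71 with Sdc1. WT mouse 8, which had the lowest depth of all 12 libraries, was lowest of the WT libraries for Tnfrsf17, Prdm1, Fam46c and Fkbp11 and highest for Jchain, Mzb1, Sdc1, Irf4 and Txndc5. The correlations share libraries and scaling, and are descriptions.

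Other genes of the antibody-secreting programme are given with limma's test over all genes. These lists too were put together with earlier results of these data known, so their adjusted p-values are not independent evidence. Between Firre rescue and ∆Firre 19.3% of all genes were called lower and 8.58% higher, and the counts below stand against those shares. No gene of the 4 lists that follow was called between ∆Firre and WT, where 0.0207% of all genes were (767 had an unadjusted p under 0.05, and limma-voom on the recovered reads called 0). Of 12 other regulators of the antibody-secreting programme 5 fell and 1 rose between ∆Firre and Firre rescue. Their median difference was -0.36, against -0.16 over all genes tested. Ell2, the elongation factor that favours the secreted form of heavy chain messages, fell from 25.3 ± 6.02 TPM in ∆Firre to 5.81 ± 2.52 in Firre rescue (SD, n = 4, log2 difference -2.004 ± 0.37 SE, limma adjusted p = 0.00376). Ikzf3 (Aiolos) fell from 16.9 ± 6.26 to 4.17 ± 1.07 TPM (-1.75 ± 0.31, adjusted p = 0.00271), and Arid3a fell by 0.78. Pou2af1, the B cell coactivator OBF-1, rose from 44.5 ± 9.34 to 87.5 ± 18.4 TPM (0.96 ± 0.21, adjusted p = 0.0087), in the direction of Mzb1. Ikzf1, the most abundant of the list, did not pass (422 and 427 TPM), but was called higher after the GC correction (0.33, adjusted p = 0.00961). Xbp1, named here after its values were seen, fell by 0.60 (152 ± 24.9 to 99.5 ± 9.42 TPM, adjusted p = 0.00433). Other members of the Irf and Prdm families were measured too. Of 7 other Irf genes 2 rose (Irf5 by 0.51, Irf8 by 0.36) and 1 fell (Irf2 by 0.31). Of 6 other Prdm genes 1 fell (Prdm4 by 0.37), but none of these 4 genes passed after the GC correction. Irf2 and Prdm4 also did not pass after the median ratio rescaling (limma adjusted p = 0.202 and 0.178). Irf5 and Irf8 did not pass with no filter on low values (0.159 and 0.162). Irf5 also failed without any one of WT mice 6, 10 and 11, ∆Firre mice 8, 11 and 12, and Firre rescue mice 1, 3 and 4, and Irf8 without any one of WT mice 6, 8 and 11, ∆Firre mice 8, 9 and 11, and Firre rescue mice 3 and 4. Irf9 (-0.18) and Prdm2 (0.07) did not pass.

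Of 12 B cell genes that Prdm1 is known to repress, 11 had enough signal to test. Between ∆Firre and Firre rescue 5 of them rose and none fell, with a median difference of 0.36. Pax5, which fixes the B cell fate, rose from 18.4 ± 3.3 to 53.0 ± 11.9 TPM (SD, n = 4, 1.47 ± 0.22 SE, limma adjusted p = 0.00119). Ebf1 rose by 1.03. Id3 rose by 1.68, a call lost with a pseudocount of 0.1, with no filter (limma adjusted p = 0.132), with limma-voom (0.113), and without ∆Firre mouse 11 or 12 or Firre rescue mouse 2 or 4 (0.109 to 0.159). The call of Irf8 was lost as given above. Myc, the most abundant, did not pass (254 and 274 TPM).

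Of 13 surface and survival genes of antibody-secreting cells with enough signal 8 fell and none rose (19.3% and 8.58% of all genes), with a median difference of -0.44. Slamf7, a surface receptor of plasma cells, fell from 19.5 ± 4.44 to 5.82 ± 1.29 TPM (SD, n = 4, -1.58 ± 0.28 SE, limma adjusted p = 0.00307), and Cd9 from 52.0 ± 13.4 to 16.3 ± 0.911 TPM (-1.59 ± 0.30, adjusted p = 0.00421). Cxcr4, the homing receptor for the marrow, fell by 0.59 and Cd28 by 0.57, and neither passed after the GC correction, after the median ratio rescaling (limma adjusted p = 0.149 and 0.205) or with no filter (0.115 and 0.137). Cxcr4 also failed without ∆Firre mouse 8 or Firre rescue mouse 3, and Cd28 with only the groups compared (0.151) and without any one of WT mouse 11, ∆Firre mice 9, 11 and 12, and Firre rescue mice 3 and 4. Cd93 was the most abundant and did not pass (488 and 466 TPM).

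Of 26 ER secretion genes 6 fell and 3 rose between ∆Firre and Firre rescue, and 17 did not pass, with a median difference of -0.08 against -0.16 over all genes. These counts are near the shares over all genes (19.3% lower and 8.58% higher). Edem1 and Edem3, which direct misfolded glycoproteins to clearance, fell by 0.73 and 0.79. Hsp90b1, the most abundant of the list, fell from 753 ± 38.5 to 569 ± 33.2 TPM (-0.40 ± 0.12 SE, limma adjusted p = 0.0316), while Sdf2l1 rose by 0.73 and Syvn1 by 0.64. The calls of Edem3, Hsp90b1 and Syvn1 were lost after the GC correction, and that of Hsp90b1 also after the median ratio rescaling (adjusted p = 0.138). Syvn1 also failed with no filter (0.106), with only the groups compared (0.122), and without ∆Firre mouse 8 or 9 or Firre rescue mouse 3 or 4, the difference being 0.42 without Firre rescue mouse 3. Relatives of the 10 genes were also measured. Derl1 and Derl2 did not pass between ∆Firre and Firre rescue (-0.23 and -0.30), and none of 5 thioredoxin-domain genes did, Tmx1 being the most abundant (-0.21). Fkbp9 did not pass either (-0.91). Of these, Derl1 passed with only the groups compared (limma adjusted p = 0.0448), Derl2 without Firre rescue mouse 3 (0.0529), Tmx1 without Firre rescue mouse 2 (0.0689), WT mouse 11 (0.0986) or the immunoglobulin genes (0.065), and Fkbp9 without Firre rescue mouse 1 (0.0833) or with limma-voom (0.0978). Of 3 other Fkbp genes tested 1 rose (Fkbp2 by 0.99) and 2 did not pass. Of 3 syndecan genes besides Sdc1, 1 rose (Sdc4 by 0.84, in the direction of Sdc1) and 2 did not pass. Fam46a fell by 2.54 (25.4 ± 5.12 to 3.62 ± 1.44 TPM) in the direction of Fam46c.

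**Figure D4:**
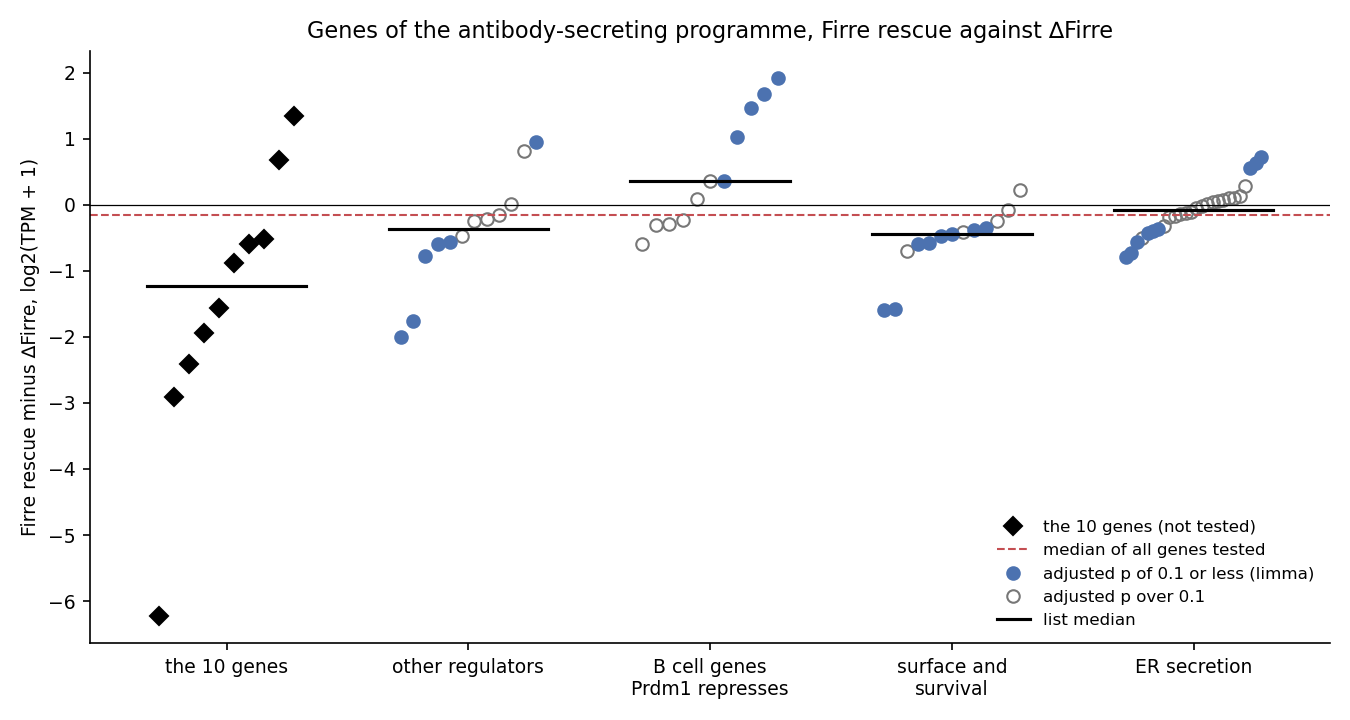
Differences in mean log2(TPM + 1) of Firre rescue minus ∆Firre are plotted for the 10 genes and 4 lists, 1 point per gene (diamonds for the 10 genes, which are not tested, and for the lists circles, filled where limma's adjusted p is 0.1 or less), with list medians as black lines and the median of all genes (-0.16) dashed. The ER secretion list lies around the dashed line (median -0.08), and the B cell genes that Prdm1 represses lie higher (median 0.36).

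Markers of several other cell types differed between the same groups. Over all genes tested 19.3% were called lower and 8.58% higher in Firre rescue than in ∆Firre, and the marker counts stand against those shares. The summed TPM of 9 B cell markers ranged from 175 to 348 in WT, 237 to 318 in ∆Firre and 592 to 1036 in Firre rescue, with 5 of 7 tested rising between ∆Firre and Firre rescue, 1 falling (Ms4a1), and Cr2 at 0 throughout Firre rescue. The sum of 6 basophil and mast cell markers ranged from 1052 to 9045 in WT, 2918 to 4291 in ∆Firre and 64.0 to 142 in Firre rescue, with all 6 falling. The 6 natural killer cell markers summed to 343 to 710 TPM in WT, 410.2 to 633 in ∆Firre and 241 to 295 in Firre rescue, and the 6 markers of type 2 innate lymphoid cells to 75.4 to 115, 90.0 to 116 and 43.0 to 73.1 TPM, with 4 falling in each list and Klrg1 at 0 throughout Firre rescue. The 7 plasmacytoid dendritic cell markers summed to 532 to 594, 461 to 574 and 544 to 642 TPM, with 3 of 6 tested falling and 1 rising between ∆Firre and Firre rescue and Klk1 at 0 in all libraries. The 8 CLP markers summed to 6462 to 9174, 7538 to 7951 and 9110 to 9893 TPM, with 2 rising and 1 falling. The sums of neutrophil, erythroid and T cell markers overlapped in every comparison, with 1 neutrophil and 1 T cell marker falling. Within groups the deviations of Jchain had an r with the 9 marker sums that ran from -0.25 (B cell) to 0.44 (erythroid), with 0.27 for type 2 innate lymphoid cells and 0.18 for basophils. All 4 rest on Firre rescue mouse 4, without which they were 0.37, -0.04, -0.38 and -0.15. In WT and ∆Firre alone it ran from -0.58 (basophil) to 0.58 (CLP), with 0.49 for B cells. The part of these cell types in the levels of the 10 genes was not tested.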

How the data were processed

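RNA of sorted CLPs was measured in 12 male mice (WT, ∆Firre and Firre rescue on doxycycline, 4 of each), each giving a single library. Per their notes and methods, the authors removed adapters (cutadapt), aligned to mm10 using TopHat2 2.1.1, assigned reads to Gencode genes using featureCounts, and deposited TPM, in which reads are set against gene length and every library has an equal sum. TPM hides depth and ties each gene to all others, so a few very abundant genes can shift the rest. Whole reads were therefore worked out from the steps between TPM values (14476 of 14479 genes tested, tolerance 0.02) and used for depth, where intervals and floors cover counting error only.

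The genes whose mean reached 1 TPM were fitted on log2(TPM + 1) with limma 3.58.1 in R 4.3.3 (lmFit, eBayes with a mean-variance trend), all 12 libraries and 3 groups in one fit. P-values were two-sided, adjusted by Benjamini-Hochberg over the 14479 genes, and called at 0.1 or less. The same fit was also run on simulated reads, and the outcome is not used here. Likeness was Pearson's r of deviations from group means. Sums, sequences and figures used Python 3.11.15.

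The 10 genes and all lists were chosen with earlier results of these data known. Named were the 10 genes, every immunoglobulin constant gene, and of each other list at most 4 called genes by size of the difference between Firre rescue and ∆Firre plus the most abundant gene. The 5 named genes outside the immunoglobulin loci most like Jchain were added, with Firre. Ighd, Ighg2b and Ighg3 were not analysed here. One further list gene that the rule would name is not reported here. Positions are from RefSeq (GRCm38.p6). Alternatives were pseudocounts of 0.1 and 5, no filter on low values, a minimum mean of 5 TPM, median ratio rescaling, TPM without immunoglobulin genes, only the groups compared, blocks for mouse number or library number, each library left out, and limma-voom on recovered reads. A correction for transcript GC content and the same 11713 genes (80.9%) without it were added after seeing the data, as was likeness in WT and ∆Firre alone and with each library left out.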

Additional observations from a re-analysis of the deposited data

Results flagged for a closer look

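In a group of 4 libraries a value was singled out where its gap to the nearest other, as a share of the group's range on the log2(TPM + 1) scale, passed Dixon's 95% critical value, which chance does in about 1 in 20 groups. It was met 4 times in the 30 sets of the 10 genes. Since the genes were chosen on these libraries, this describes single values and no test is read from it. Tnfrsf17 stood at 1.52 in Firre rescue mouse 2 (17 reads), with the other 3 Firre rescue libraries at 0, where any value above 0 would be singled out. Prdm1 stood at 0.45 in WT mouse 8 (7 reads), below 2.02 to 2.13 in the other 3. Sdc1 stood at 6.54 in the same WT mouse 8, above 5.7 to 5.8 in the others. Fkbp11 stood at 3.52 in Firre rescue mouse 4 (72 reads), above 0 to 0.6 in the others.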

How the results depend on the processing

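The number of genes called between ∆Firre and WT was 3, and 6 with no filter, 1 with only the groups compared, 1 with the replicate block (mice 8 and 11 in both groups), 1 with the library number block, 0 with limma-voom, 0 after the GC correction and 0 on the same genes without it. Leaving out each library gave 1 to 5. Between Firre rescue and ∆Firre 4043 genes were called, and 2462 after the GC correction, against 3753 on the same genes without it, with 2820 to 4460 when each library was left out. Between Firre rescue and WT 3512 were called, 2263 with only the groups compared and 1989 after the GC correction (3339 without it), with 2670 to 4349 when each library was left out. The cause was not tested. Same-numbered mice did not deviate together (r = -0.0328 for mouse 8 and -0.0411 for mouse 11), and the blocks could be fitted only between ∆Firre and WT.

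Of 671 recomputed differences of the 10 genes, 652 stayed within 1 SD of the value given, 19 moved further, all in Tnfrsf17, Prdm1, Fam46c, Derl3 or Fkbp11 with another pseudocount or on reads, and 11 changed sign, all for Mzb1 or Fkbp11 between ∆Firre and WT. With a mean of at least 5 TPM, Tnfrsf17, Prdm1 and Fkbp11 are left out. Of 2616 differences of 39 list genes, 108 lost and 26 gained a call, and Irf2 turned to 0.01 between Firre rescue and ∆Firre after the GC correction. The summed immunoglobulin genes differed by -3.57 between Firre rescue and ∆Firre, and by -2.14 for heavy-chain genes alone. Depth limits Tnfrsf17 and Fkbp11 most.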
